A study of Mus musculus with 7 samples.

Results

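Integrins and laminins were examined in bulk RNA-seq of mouse pancreatic ductal adenocarcinoma (PDA) tumors. Members were the 33 genes of the deposited table, out of 38026 genes, whose symbol equals that of 1 of a list of 23 integrin chains and 10 laminin chains, a rule that uses no measured value. The study edited *Krt19*, the gene of an epithelial keratin, and compared tumors formed by control and edited cancer cells. Poly(A) RNA was sequenced from 7 untreated subcutaneous tumors taken 2 weeks after inoculation. The sgScramble group (4 tumors, replicates 1 to 4) was formed by cells with a scrambled guide RNA and carries the label of a control tumor. The sgKRT19 group (3 tumors, replicates 5, 6 and 8) was formed by cells with a guide RNA against *Krt19* and carries the label of a knockout tumor. Both groups share the C57BL/6 host, the cancer cell line (the line 1242, from a KPC mouse, in which Pdx1-Cre is active in the pancreatic epithelium), the lentivirus with Cas9, and puromycin selection. The labels give neither which *Krt19* guide the tumors carried, nor whether the injected cells were polyclonal or 1 clone, and the methods describe both kinds. Per the methods, the mice were young when they were bought and were housed for some time before use.

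Integrins are cell surface receptors made of 1 alpha and 1 beta chain that bind matrix proteins or counter-receptors on other cells, and the chain pair sets the ligand. Laminins are secreted cross-shaped trimers of an alpha, a beta and a gamma chain that form the scaffold of basement membranes, the sheets under epithelia and around vessels, nerves and muscle fibers. Epithelial cells hold on to them chiefly through α3β1 and α6β4 integrin, whereas leukocytes carry their own integrins of the β2 and β7 families.

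The unit is the normalized read count, in which the reads of a gene are divided by the library's size factor. A mean is given ± its SD over the tumors of the group. The libraries held 40781199 to 44972100 reads, and 3 reads, taken as the floor of detection, were worth a value of 2.74 to 3.47. *Krt19* averaged 23053 ± 4392 (n = 4) in sgScramble and 2012 ± 434 (n = 3) in sgKRT19 tumors, or 8.73% of the control mean, so the labels and the targeted gene point the same way. Epithelial markers were present in every tumor, with a summed value of 135677 to 187882 in sgScramble and 285853 to 293370 in sgKRT19 tumors. Each tumor entered as 1 replicate, and differences were tested with limma on log2(value + 1), with p-values adjusted by the Benjamini-Hochberg method over the 21322 genes that reached a value of 10 in 3 or more libraries. A gene is called here at an adjusted p under 0.05. These p-values measure the spread between tumors of a group. Since the labels do not give the guide or whether a group came from 1 clone, a difference between lines or clones cannot be told apart from the edit. In a bulk tumor, fewer cells of a type and less RNA per cell cannot be told apart.

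Of the 33 members, 32 passed the filter, and *Lamc3*, a gamma chain of restricted expression, did not. limma called 13 of the 32 (40.6%), beside 34.0% of all genes tested, and edgeR's quasi-likelihood test called 12, beside 33.7%. Of these, 5 were higher in sgKRT19 tumors (*Itgae*, *Itgb7*, *Itgb2*, *Itgax* and *Itgb6*), where 17.9% of all genes were called higher, and 8 were lower (*Itgb8*, *Lamb1*, *Itga10*, *Lama5*, *Itgb5*, *Itgav*, *Itga3* and *Itga5*), where 16.0% of all genes were called lower. The tumors of the groups did not overlap for 9 of the 32 members, beside 41.1% of all genes, with sgKRT19 higher for 2 (21.7% of all genes) and lower for 7 (19.3%). Over the 32, the log2 fold changes of sgKRT19 over sgScramble had a median of 0.09, against 0.01 over all genes tested. The median of the members was −0.08 without sgKRT19 6 and 0.28 without sgKRT19 8. The median was 0.29 over the 23 integrins, of which 11 were called, and −0.25 over the 9 tested laminins, of which 2 were called. The call count was 6 without sgScramble 2, where 23.1% of all genes were called, and 8 without sgScramble 4 (24.7%), sgKRT19 5 (23.6%) or sgKRT19 6 (29.0%). When only library size was scaled, the median over all genes shifted to −0.21, that over the 32 members to −0.13 and that over the integrins to 0.08. Of all calls, 27.7% were then higher in sgKRT19 in place of 52.8%. The called members were 12 (37.5%, beside 37.0% of all genes), 2 higher and 10 lower.

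**Figure D1:**
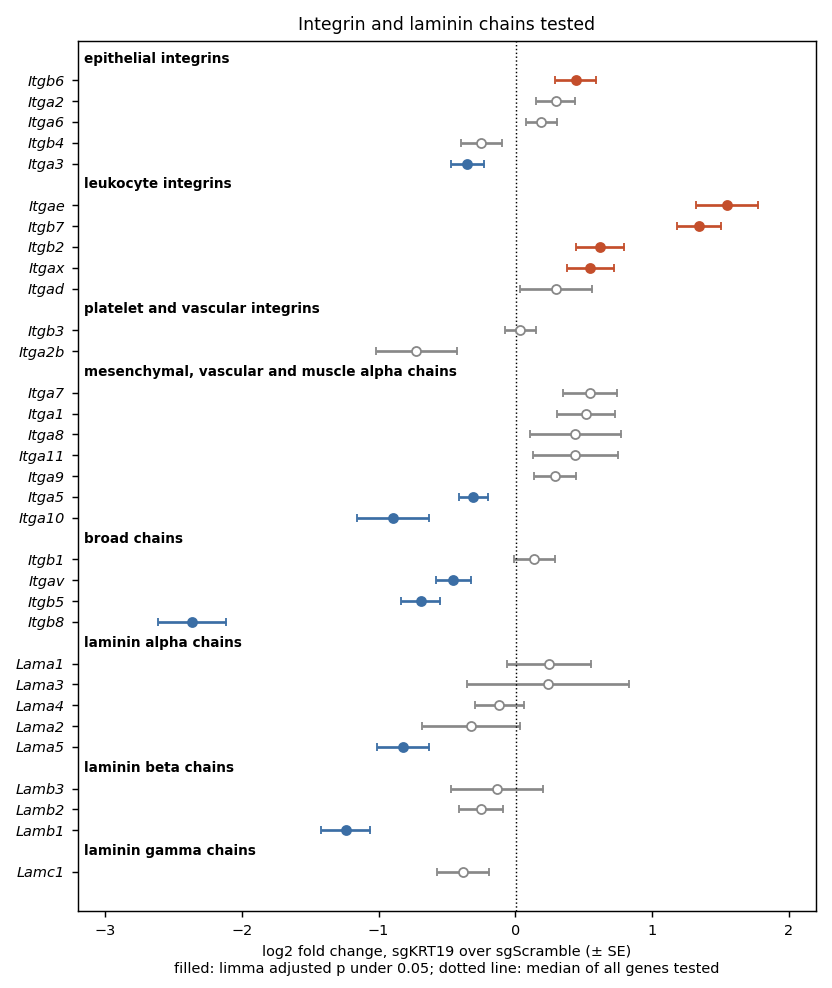
Log2 fold change of sgKRT19 over sgScramble tumors (x axis, with the standard error as bars) for the 32 tested integrin and laminin chains, grouped by role. Filled points passed limma's adjusted p of 0.05 (red higher, blue lower in sgKRT19); the leukocyte chains *Itgae* and *Itgb7* lie at 1.55 and 1.34, and *Itgb8* and *Lamb1* at −2.36 and −1.24.

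Leukocyte integrins were called higher in sgKRT19 tumors for 4 of the 5 members, where 17.9% of all genes were called higher. The median log2 fold change of the 5 was 0.62 (0.40 with library size as the only scaling). *Itgae* (chr11:73090583-73147446, GRCm38) and *Itgb7* (chr15:102215995-102231944) encode αE (CD103) and β7, the 2 chains of αEβ7, a receptor for E-cadherin on tissue-resident T cells and some dendritic cells. *Itgae* was 73.4, 91.9, 67.6 and 99.2 in sgScramble tumors 1 to 4 and 199.99, 331 and 213 in sgKRT19 tumors 5, 6 and 8. The lowest sgKRT19 tumor thus had more than any control tumor, with a 2.99-fold mean difference and a log2 fold change of 1.55 (standard error 0.23, limma adjusted p = 0.000856). *Itgb7*, which also pairs with α4 in gut homing, was 171, 142, 131 and 161 in sgScramble and 400.0, 425 and 329 in sgKRT19 tumors. The groups again lay apart, with a 2.54-fold mean difference and a log2 fold change of 1.34 (standard error 0.16, limma adjusted p = 0.000305). Both genes passed in each fit that left out 1 tumor, with log2 fold changes of 1.32 to 1.68 for *Itgae* and 1.26 to 1.45 for *Itgb7*.

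The β2 chain and its CD11 partners among the members, *Itgax* and *Itgad*, moved less. *Itgb2*, the common β2 chain (CD18) that leukocytes need for firm adhesion, was 1164, 1039, 904 and 1485 in sgScramble and 1768, 2016 and 1458 in sgKRT19 tumors (log2 fold change 0.62, standard error 0.17, limma adjusted p = 0.0219). *Itgax*, the CD11c chain of dendritic cells and macrophages, was 845, 874, 872 and 1207 in sgScramble and 1203, 1749 and 1228 in sgKRT19 tumors (0.55, standard error 0.17, limma adjusted p = 0.033). Both rose, but their groups overlapped because sgScramble 4 reached the lowest sgKRT19 tumor. *Itgad* (CD11d), found on subsets of macrophages, ranged from 52.1 to 84.4 and from 62.4 to 111 (0.30, limma adjusted p = 0.402). The *Itgb2* call was lost without sgScramble 2 (adjusted p = 0.0598), sgKRT19 5 (0.0639) or sgKRT19 6 (0.0795), and the *Itgax* call without sgScramble 1 (0.064), 2 (0.083) or 3 (0.0626) or sgKRT19 6 (0.117). With library size as the only scaling neither was called, at 0.40 and 0.33 on the log2 scale.

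A further 3 leukocyte chains of the table are no members and were looked up after the member values were seen. *Itgal*, the αL chain (CD11a) of LFA-1, averaged 346 ± 100.2 (n = 4) in sgScramble and 753 ± 185 (n = 3) in sgKRT19 tumors (log2 fold change 1.14, limma adjusted p = 0.0058). The αL chain was called without any 1 of the tumors. *Itgam*, the CD11b chain of myeloid cells, differed by 0.13 (adjusted p = 0.657). *Itga4*, the α4 chain that pairs with β1 or β7, differed by 0.39 (adjusted p = 0.211). Of the 4 α chains that pair with β2, *Itgal* and *Itgax* were thus called higher like *Itgb2*, and *Itgam* and *Itgad* did not pass.

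Leukocyte markers moved with these genes. Beside the counts below, 17.9% of all genes were called higher and 16.0% lower. All 8 of 8 pan-leukocyte markers were called higher, and their summed value was 9558 to 12703 in sgScramble and 17778 to 23542 in sgKRT19 tumors. Of 10 T cell markers 9 were called higher, with sums of 881 to 1573 and 4330 to 7764, and the median log2 fold change was 2.42. Of 8 dendritic cell markers 3 (*Xcr1*, *Clec9a* and *Cd24a*) were called higher, with sums of 14779.5 to 18391 and 21916 to 30668 made up mostly of *Cd24a*, which epithelial cells express as well. The macrophage list was mixed. Of 8 macrophage markers 3 were called higher and 1 lower, with sums of 18297 to 25289 and 23825 to 29290. Of 6 tested neutrophil markers 5 were called higher, with sums over the list of 380.4 to 573 and 1096 to 1187. No defining marker of these lists was at or under the floor in all tumors. The neutrophil markers *Ly6g* (0.91 to 5.78 over the tumors) and *Ngp* (0 to 9.25) stayed under the filter, with values near the floor. The part of these cell types in the integrin values was not tested.

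Epithelial integrins showed no common direction. Of the 5 members 1 was called higher and 1 lower (40%, beside 34.0% of all genes). The median log2 fold change was 0.19, which turned to −0.03 with library size as the only scaling. *Itga3*, the α chain of the laminin-binding α3β1, was 9735, 11004, 8815 and 9478 in sgScramble and 7315, 8619 and 7026 in sgKRT19 tumors. Every sgKRT19 tumor lay below every control tumor, and the difference was −0.35 (standard error 0.12, limma adjusted p = 0.0477). *Itgb6*, which pairs with αv on epithelium and releases latent TGF-β, was 607, 574, 693.2 and 601 in sgScramble and 1049, 811 and 693.1 in sgKRT19 tumors. It rose by 0.44 (standard error 0.15, limma adjusted p = 0.0455), although sgKRT19 8 did not exceed sgScramble 3. Both calls sat close to the threshold. With library size as the only scaling *Itgb6* was not called, at 0.23 (adjusted p = 0.217). *Itga3* was the called member that edgeR (adjusted p = 0.0516) and TMM scaling (0.0519) left out, and with no filter or without the trend neither gene was called. The *Itga3* call was lost without sgScramble 1, 2 or 4 or sgKRT19 5 or 8 (adjusted p of 0.0668, 0.14, 0.0797, 0.121 and 0.15), and the *Itgb6* call without sgScramble 1, 2 or 4 or sgKRT19 5 or 6 (0.072, 0.113, 0.0933, 0.165 and 0.0803).

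The remaining epithelial chains did not pass. *Itga2*, the α chain of the collagen receptor α2β1, ranged from 4349 to 6423 in sgScramble and from 6118 to 7591 in sgKRT19 tumors (log2 fold change 0.29, limma adjusted p = 0.14). *Itga6* was 10573, 10862, 9677 and 10663 in sgScramble and 12009, 13171 and 10667 in sgKRT19 tumors (0.19, adjusted p = 0.218). *Itgb4*, the chain that links laminin to the keratin network in hemidesmosomes, was 2830.2, 4129, 3770.1 and 4123 in sgScramble and 2794, 3508 and 3011 in sgKRT19 tumors (−0.25, adjusted p = 0.218). Together *Itga6* and *Itgb4* form α6β4, and their estimates had opposite signs. Among 17 alternatives *Itgb4* was called only without sgScramble 1, its lowest control tumor (−0.37, adjusted p = 0.0365), and 7.66% of its exon bases lie opposite the exons of B230344G16Rik. The log2 ratio of *Itga6* to *Itgb4* was 1.90, 1.40, 1.36 and 1.37 in sgScramble and 2.10, 1.91 and 1.82 in sgKRT19 tumors, so that sgScramble 1 lay among the sgKRT19 tumors. The difference of 0.44 did not pass an exact two-sided permutation test over the 35 splits of the tumors (p = 0.114, adjusted over 6 ratios 0.229), a test that cannot go below p = 0.0571 here.

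Hemidesmosome partners were looked at beside α6β4. Of 6 genes 4 were tested and 0 were called by limma, beside 34.0% of all genes. The widest difference among the 4 was that of *Dst*, a plakin of the hemidesmosome, at −0.50 (limma adjusted p = 0.166, and 0.045 without sgScramble 1). *Plec*, the plakin plectin that binds β4, was −0.13, and the tetraspanin *Cd151* was 0.19. The collagen *Col17a1* (9.13 to 11.1 in sgScramble and 0 to 7.35 in sgKRT19 tumors) and the basal keratin *Krt5* stayed under the filter. Epithelial markers were called higher for 6 of 10 (*Cdh1*, *Krt8*, *Krt18*, *Krt20*, *Muc1* and *Elf3*), beside 17.9% of all genes. Their sums lay apart between the groups (above). *Krt8* and *Krt18* together supplied 85935 to 121915 of these sums in sgScramble and 191068 to 211133 in sgKRT19 tumors, and the sums of the other 8 markers lay apart as well (49743 to 65967 and 82237 to 96039). Of the 4 markers that did not pass, *Epcam* (0.06) and *Cldn7* (0.47) had positive and *Krt7* (−1.03) and *Cldn4* (−1.23) negative log2 fold changes. Their part in the epithelial integrin values was not tested.

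The broadly expressed chains were called lower for 3 of 4 members, where 16.0% of all genes were called lower. *Itgb8* (chr12:119158022-119238802) encodes the β8 chain, which pairs only with αv and presents latent TGF-β. It was 135, 197, 157 and 229 in sgScramble and 30.1, 45.01 and 27.3 in sgKRT19 tumors. In sgKRT19 tumors the mean was 19.0% of that of the controls, and the highest sgKRT19 tumor stayed well under the lowest control tumor (log2 fold change −2.36, standard error 0.25, limma adjusted p = 0.000167). *Itgb5* (chr16:33829665-33949338), a vitronectin receptor chain that also pairs with αv, was 9378, 10467, 10288 and 10815 in sgScramble and 7871, 6117 and 5268 in sgKRT19 tumors (−0.69, standard error 0.14, limma adjusted p = 0.00506). *Itgav*, the αv partner of β3, β5, β6 and β8, was 6408, 6838, 5372 and 6607 in sgScramble and 5147, 4707 and 3986 in sgKRT19 tumors (−0.45, standard error 0.13, limma adjusted p = 0.0217). For all 3 genes the groups did not overlap. The *Itgav* call was lost without sgScramble 2 (adjusted p = 0.0676), sgScramble 4 (0.0524) or sgKRT19 8 (0.086).

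*Itgb1*, the β1 chain shared by the collagen, fibronectin and most laminin receptors, stood apart from these. It was 24823, 23625, 22131 and 23968 in sgScramble and 31454, 26188 and 21369 in sgKRT19 tumors, so the sgKRT19 tumors lay on both sides of the controls. The log2 fold change was 0.14 (standard error 0.15, limma adjusted p = 0.488), and −0.08 when only library size was scaled. The other αv partner outside epithelium, *Itgb3*, ranged from 1309 to 1564 in sgScramble and from 1319 to 1542 in sgKRT19 tumors (0.04, adjusted p = 0.819). Of the 5 β chains that pair with αv, β5 and β8 fell along with αv itself, β6 rose, and β1 and β3 did not pass.

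The level of a chain relative to the others was compared as RPKM, the reads per kb of exon scaled to the total of the library. On it *Itgb1* had the highest level of the 33 members in both groups, at 145 ± 7.45 (n = 4) in sgScramble and 138 ± 18.0 (n = 3) in sgKRT19 tumors. *Itgb5* came next at 72.2 ± 6.83 and 38.6 ± 5.14, followed by *Itga3* at 42.7 ± 3.95 and 29.0 ± 4.62. *Lama5* (41.3 ± 11.5), *Lamb1* (37.7 ± 7.90) and *Lamc1* (32.1 ± 8.50) followed in sgScramble tumors, where their ranges over tumors overlapped each other and that of *Itga3*. In sgKRT19 tumors *Itga6* (28.5 ± 3.84), *Lamc1* (20.8 ± 3.55) and *Itga2* (20.5 ± 3.10) were ranked above *Lama5* (19.6 ± 1.90) and *Lamb1* (13.6 ± 2.03). Among these, neighbours in the order overlapped except *Itga6* with *Lamc1* and *Lama5* with *Lamb1*. *Itgb8* was a low-level chain in either group, at 0.408 ± 0.109 and 0.0669 ± 0.0217, against 14.7 ± 1.65 and 9.21 ± 0.807 for its partner *Itgav*. *Lamc3* was lowest, at 0.0334 and 0.0253.

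Alpha chains of mesenchymal, vascular and muscle cells were called for 2 of 7 members (28.6%, beside 34.0% of all genes). Both were lower in sgKRT19 tumors, while the other 5 had positive estimates. *Itga5*, the α chain of the fibronectin receptor α5β1, was 3593, 3597, 3387 and 3681 in sgScramble and 2914, 2575 and 3179 in sgKRT19 tumors (log2 fold change −0.31, standard error 0.10, limma adjusted p = 0.0452). The control tumors were close together and all lay above the sgKRT19 tumors. *Itga10*, a collagen receptor chain of cartilage, was 124, 207, 145 and 201 in sgScramble and 69.4, 78.0 and 129 in sgKRT19 tumors (−0.89, standard error 0.26, limma adjusted p = 0.0264). Its groups overlapped, and 33.5% of its exon bases belong also to the gene model Gm42957 on the same strand, so its reads are uncertain. The *Itga5* call was lost without any 1 of the tumors except sgKRT19 8 (adjusted p of 0.0614 to 0.147), and the *Itga10* call without sgScramble 2 (0.0758), sgScramble 4 (0.068), sgKRT19 5 (0.0992) or sgKRT19 6 (0.0795).

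The 5 that did not pass were *Itga7*, *Itga1*, *Itga8*, *Itga11* and *Itga9*, with log2 fold changes of 0.29 to 0.55. *Itga7*, the laminin receptor chain of skeletal and smooth muscle, was 405, 306, 521 and 304 in sgScramble and 623, 488 and 541 in sgKRT19 tumors (0.55, standard error 0.20, limma adjusted p = 0.0552). It was called without sgScramble 3, the control tumor with the highest value (0.71, adjusted p = 0.0127). All 10 of 10 skeletal muscle markers were called higher in sgKRT19 tumors, beside 17.9% of all genes. Their summed values were 394 to 2833 in sgScramble, highest in sgScramble 3, and 20273 to 29742 in sgKRT19 tumors. Of 8 smooth muscle and pericyte markers 3 (*Acta2*, *Rgs5* and *Des*) were called higher (37.5%), with sums of 9736 to 10929 and 16325 to 24011. *Des*, desmin, is a gene of skeletal muscle as well, and without it the sums were 8982 to 10835 and 11420 to 17409. The part of muscle in the *Itga7* values was not tested. *Itga1*, a collagen receptor chain of vessels and stroma, ranged from 2045 to 3298 and from 3028 to 4918 (0.51, adjusted p = 0.0844), and *Itga8*, which binds nephronectin, stayed between 10.2 and 27.0 in all tumors.

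The platelet and vascular pair gave no call. *Itga2b*, the αIIb chain of the platelet fibrinogen receptor, was 77.1, 105, 125 and 109 in sgScramble and 74.0, 37.0 and 85.1 in sgKRT19 tumors (log2 fold change −0.72, standard error 0.30, limma adjusted p = 0.084, and 0.0324 when only library size was scaled). The sgKRT19 tumors extended below the controls but overlapped with sgScramble 1. Of 9 platelet and megakaryocyte markers 4 were tested and 0 called, beside 34.0% of all genes. Their sums were 798 to 1045 and 763 to 1623, and *Gp6* lay at or under the floor. Endothelial markers were called higher for 5 of 9, beside 17.9% of all genes, with sums of 4938 to 7103 and 7428 to 8573.

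**Figure D2:**
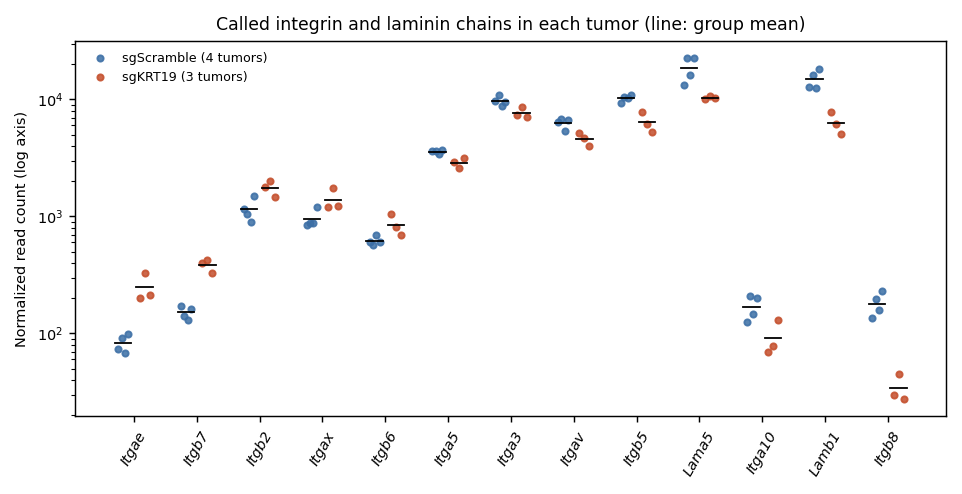
Normalized read count (y axis, log scale) of the 13 called members in each of the 4 sgScramble (blue) and 3 sgKRT19 (red) tumors, ordered by log2 fold change, with a line at each group mean. *Itgae* and *Itgb7* at the left and *Itgb5*, *Lama5*, *Lamb1* and *Itgb8* at the right have groups that do not overlap, whereas *Itgb2*, *Itgax*, *Itgb6* and *Itga10* overlap.

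Laminin chains were called for 2 of the 9 tested (22.2%, beside 34.0% of all genes), both lower. *Lamb1* (chr12:31265234-31329644) encodes the β1 chain, the β chain of most laminins outside the epidermal and neuromuscular ones. It was 12892, 16152, 12529.7 and 18044 in sgScramble and 7742, 6219 and 5033 in sgKRT19 tumors. In sgKRT19 tumors the mean was 42.5% of that of the controls, and the groups did not overlap (log2 fold change −1.24, standard error 0.18, limma adjusted p = 0.000744). *Lama5* (chr2:180176373-180225859) encodes the α5 chain, the broadest α chain of adult epithelial and vascular basement membranes. It was 13224, 22661, 16299.8 and 22686 in sgScramble and 10093, 10598 and 10288 in sgKRT19 tumors. The control tumors were widely spread and the sgKRT19 tumors close together, at 55.2% of the control mean and below all controls (−0.82, standard error 0.19, limma adjusted p = 0.00887). In both genes controls 2 and 4 exceeded controls 1 and 3. Both genes passed in each fit that left out 1 tumor.

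*Lamc1*, the γ1 chain that forms a trimer with these chains, did not pass. It was 7709, 12249, 9293 and 13018 in sgScramble and 7892, 9122 and 6925 in sgKRT19 tumors (log2 fold change −0.38, standard error 0.19, limma adjusted p = 0.136). The controls 1 and 3 lay within or next to the sgKRT19 range and the controls 2 and 4 above it. *Lamb2*, the β2 chain of neuromuscular, glomerular and vascular laminins, was 2212, 3325, 3407 and 3568 in sgScramble and 2571, 2461 and 2703 in sgKRT19 tumors (−0.25, adjusted p = 0.238). Without sgScramble 1, the lowest control for both genes, *Lamc1* (−0.52, adjusted p = 0.0331) and *Lamb2* (−0.41, adjusted p = 0.0136) were called. *Lamc1* was also called when only library size was scaled (−0.60, adjusted p = 0.0415).

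The other α chains gave no call. *Lama4*, the α4 chain of vessel laminins, ranged from 1093 to 1983 in sgScramble and from 1195 to 1383 in sgKRT19 tumors (log2 fold change −0.12, limma adjusted p = 0.63). *Lama2*, the α2 chain around muscle fibers and peripheral nerve, was 166, 169.9, 534 and 307 in sgScramble and 184, 228 and 216 in sgKRT19 tumors (−0.32, adjusted p = 0.506). The highest *Lama2* value was that of sgScramble 3, the control with the highest sum of skeletal muscle markers. The sgKRT19 tumors, whose muscle sums were higher, lay inside the control range. The part of muscle in the *Lama2* values was not tested. *Lama1*, the α1 chain typical of embryonic basement membrane, stayed between 36.2 and 95.5 in all tumors (0.25, adjusted p = 0.554).

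*Lama3* and *Lamb3* encode the α3 and β3 chains of laminin-332, the anchoring laminin of stratified and glandular epithelium and the chief ligand of α6β4. *Lama3* was 405, 206, 345 and 145 in sgScramble and 387, 728 and 95.6 in sgKRT19 tumors (log2 fold change 0.24, standard error 0.59, limma adjusted p = 0.773). *Lamb3* was 1504, 1125, 1796 and 819.8 in sgScramble and 1561, 1510.3 and 635 in sgKRT19 tumors (−0.13, standard error 0.34, adjusted p = 0.776). In both genes controls 1 and 3 exceeded controls 2 and 4, and sgKRT19 5 and 6 exceeded sgKRT19 8. The spread within groups was thus larger than the difference between them for both genes.

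**Figure D3:**
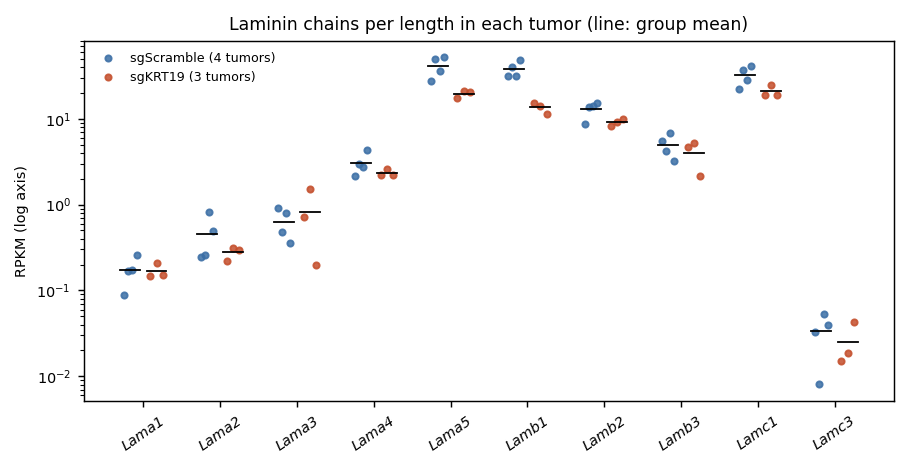
Level of the 10 laminin chains in each tumor as RPKM, reads per kb of exon scaled to the library total (y axis, log scale), with sgScramble tumors in blue, sgKRT19 tumors in red and a line at each group mean. *Lama5*, *Lamb1* and *Lamc1* are the most abundant chains in sgScramble tumors, and *Lama5* and *Lamb1* have groups that do not overlap.

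The makeup within each chain class was described on the per-length scale, in which library scaling cancels. *Lama5* supplied 90.3% ± 1.84 (n = 4) of the α chain RPKM in sgScramble and 84.5% ± 2.87 (n = 3) in sgKRT19 tumors, and every sgKRT19 tumor lay below every control. The share of *Lama4* was 6.69% ± 0.832 and 10.1% ± 0.571, and that of *Lama1* 0.372% ± 0.0809 and 0.721% ± 0.0803, both without overlap. Within the β class, *Lamb1* supplied 67.6% ± 5.05 and 50.8% ± 3.04 and *Lamb2* 23.1% ± 3.07 and 34.6% ± 6.87, again without overlap, while *Lamb3* overlapped at 9.29% ± 3.85 and 14.6% ± 4.75. The shares sum to 100% in a tumor, so a smaller share of one chain raises the others.

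Ratios of chains were then tested with the exact permutation test named above. The log2 ratio of *Lamb1* to *Lamb2* was 2.54, 2.28, 1.88 and 2.34 in sgScramble and 1.59, 1.34 and 0.90 in sgKRT19 tumors, a difference of −0.99. That of *Lama4* to *Lama5* was −3.60, −3.99, −3.62 and −3.52 in sgScramble and −2.88, −2.94 and −3.10 in sgKRT19 tumors, a difference of 0.70. In both ratios all sgKRT19 tumors lay on one side of all controls, which gives p = 0.0571 in the exact permutation test, the smallest that 4 against 3 tumors allow, and 0.171 adjusted over 6 ratios. The ratio of *Itgae* to *Itgb7*, the chains of αEβ7, differed by 0.21 (exact permutation p = 0.4). That of *Itgax* to *Itgb2* differed by −0.07 (exact permutation p = 0.743), and that of *Lama3* to *Lamb3* by 0.38 (exact permutation p = 0.514). Adjusted over the 6 ratios, these were 0.6, 0.743 and 0.617.

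**Figure D4:**
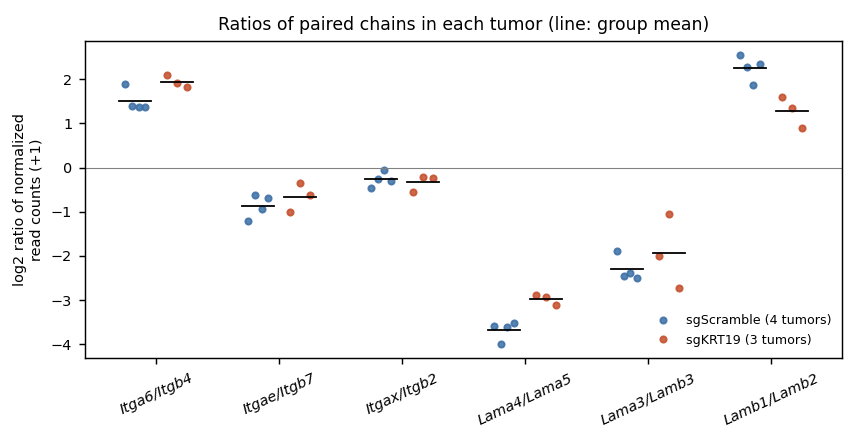
Log2 ratio of normalized read counts (y axis, with 1 added to each value) for 6 chain pairs in each sgScramble (blue) and sgKRT19 (red) tumor, with a line at each group mean. The groups lie apart for *Lama4*/*Lama5* (means −3.68 and −2.98) and *Lamb1*/*Lamb2* (2.26 and 1.27) and overlap for the other 4 pairs.

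Promoters were read for the 6 members with the smallest adjusted p-values (all under 0.01), of which 5 matched an entry of the RefSeq promoter table (GRCm38.p6) and *Itgae* did not. They are shown because *Itgb5*, *Lama5*, *Lamb1* and *Itgb8* fell together while *Itgb7* rose. Each line runs 5′ to 3′ on the strand of the gene up to the RefSeq start, or to the GENCODE start where that comes first, which leaves no base of *Itgb8* to print. Capitals mark matches to GGGCGG (the GC box bound by SP factors) or CAGGTG (an E-box of the ZEB and SNAIL repressors) on either strand.
*Lama5* chr2:180225860-180226109, minus strand: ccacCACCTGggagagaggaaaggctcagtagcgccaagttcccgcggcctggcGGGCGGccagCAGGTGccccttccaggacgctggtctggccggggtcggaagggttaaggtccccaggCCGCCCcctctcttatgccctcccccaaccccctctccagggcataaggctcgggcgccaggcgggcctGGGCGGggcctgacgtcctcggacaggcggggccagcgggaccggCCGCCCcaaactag
*Lamb1* chr12:31265043-31265233, plus strand: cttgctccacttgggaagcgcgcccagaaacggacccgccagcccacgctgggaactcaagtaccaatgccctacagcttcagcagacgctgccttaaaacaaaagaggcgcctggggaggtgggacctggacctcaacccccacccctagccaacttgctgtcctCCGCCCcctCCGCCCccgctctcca
*Itgb5* chr16:33829415-33829664, plus strand: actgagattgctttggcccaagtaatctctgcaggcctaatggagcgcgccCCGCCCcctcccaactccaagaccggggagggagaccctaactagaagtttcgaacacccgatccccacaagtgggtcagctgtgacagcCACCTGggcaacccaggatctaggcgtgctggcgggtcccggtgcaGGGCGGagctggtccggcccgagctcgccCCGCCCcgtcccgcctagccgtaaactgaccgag
*Itgb7* chr15:102231945-102232185, minus strand: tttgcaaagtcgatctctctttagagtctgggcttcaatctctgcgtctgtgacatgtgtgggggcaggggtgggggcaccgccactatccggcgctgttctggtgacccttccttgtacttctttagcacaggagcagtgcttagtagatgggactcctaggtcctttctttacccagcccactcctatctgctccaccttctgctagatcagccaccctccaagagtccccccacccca

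In the 250 bases before the RefSeq start, GGGCGG had 4 matches in *Lama5*, 3 in *Itgb5*, 2 in *Lamb1* and 0 in *Itgb7* and *Itgb8*, and 32.7% of 32851 promoters of that length hold at least 1. CAGGTG had 2 matches in *Lama5*, 1 in *Itgb5*, 1 in *Itgb8* and 0 in the others, against 17.2% of promoters. TGTGGT (the RUNX core, in 14.0% of promoters), TGACTCA (AP-1, in 4.46%) and TATAAA (the TATA box, in 12.4%) had 0 matches in all 5, with both strands searched and no overlap between the matched motifs. The GC content was 72.4% in *Lama5*, 65.2% in *Itgb5*, 62.4% in *Itgb8*, 62% in *Lamb1* and 56% in *Itgb7*, against a median of 52.4% over all promoters. These matches describe letters only, and no binding was measured.

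Ligands and partners of the members were read in the same fit. Among 11 matrix ligands of integrins, 6 were called (54.5%, beside 34.0% of all genes). Of these, 2 were higher and 4 lower in sgKRT19 tumors (1 and 6 with library size scaling). The median log2 fold change of the 11 was −0.45. *Fn1*, fibronectin, the ligand of α5β1 and αv integrins, was 62680.3, 95237, 60188 and 111934 in sgScramble and 41313, 32599.5 and 26355 in sgKRT19 tumors (−1.28, standard error 0.25, limma adjusted p = 0.00424). It fell to 40.5% of the control mean without overlap, as did thrombospondin *Thbs1* (−0.70, adjusted p = 0.0111) and nephronectin *Npnt* (−0.66, adjusted p = 0.0124) at 61.5% and 62.9%. *Vtn*, the vitronectin ligand of αvβ5 and αvβ3, rose at a low level and was 27.9, 16.8, 26.5 and 19.5 in sgScramble and 70.5, 40.0 and 68.3 in sgKRT19 tumors (1.34, adjusted p = 0.00769). *Egfl7*, an endothelial ligand, rose by 0.69 and *Ecm1* fell by 0.50, both with overlap of the groups, and the osteopontin gene *Spp1* did not pass (−0.34, adjusted p = 0.362). Leaving out sgKRT19 8 ended the calls of *Npnt* (adjusted p = 0.0524), *Egfl7* and *Ecm1*, leaving out sgKRT19 5 ended that of *Egfl7*, and leaving out sgScramble 2 or 4 or sgKRT19 6 ended that of *Ecm1* (over these, 0.06 to 0.0609 for *Egfl7* and 0.0785 to 0.16 for *Ecm1*). When only library size was scaled *Egfl7* was not called (0.47, adjusted p = 0.0504). Fibroblast markers, another source of matrix, had 0 of 10 called by limma, beside 34.0% of all genes. Their sums were 99197 to 232875 in sgScramble and 114643 to 128707 in sgKRT19 tumors.

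Cell surface ligands of leukocyte integrins were called for 4 of 7 tested (57.1%, beside 34.0% of all genes), with a median of 0.32. *Icam1*, the ligand of the β2 integrins, was 4946, 4955, 4764 and 5243 in sgScramble and 11002, 12360.1 and 13572 in sgKRT19 tumors (log2 fold change 1.30, standard error 0.11, limma adjusted p = 4.99e-05). *Icam2*, its endothelial relative, rose by 0.92 (adjusted p = 0.00572). *Cdh1*, the E-cadherin ligand of αEβ7, averaged 25991 ± 1376 (n = 4) and 38248 ± 3824 (n = 3), a rise of 0.55 (limma adjusted p = 0.0101). *Vcam1*, the ligand of α4β1, fell by 0.44 (adjusted p = 0.0322), and *Madcam1*, the ligand of α4β7, lay at or under the floor in every tumor. *Icam1* and *Icam2* were called in the same direction as *Itgb2*, *Itgal* and *Itgax*, while the β2 partners *Itgam* and *Itgad* did not pass. *Cdh1* was called in the same direction as *Itgae* and *Itgb7*. The *Vcam1* call was lost without sgScramble 1, 2 or 4 or sgKRT19 6 or 8 (adjusted p of 0.0527 to 0.102). The calls of *Icam1*, *Icam2* and *Cdh1* passed without any 1 tumor.

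Basement membrane partners of laminins were called for 4 of 16 (25%, beside 34.0% of all genes), 1 higher and 3 lower, with a median of −0.08. The collagen IV chain gene *Col4a5* was 1382, 1884, 1322 and 1881 in sgScramble and 675, 773 and 824 in sgKRT19 tumors (log2 fold change −1.08, standard error 0.16, limma adjusted p = 0.000792). Its neighbour on the X chromosome, *Col4a6*, fell by 0.92 (adjusted p = 0.0279) with overlap in sgKRT19 6, and *Bcam*, a receptor for the laminin α5 chain, fell by 0.48 (adjusted p = 0.0427). *Fbln1*, a matrix glycoprotein that binds laminin, rose by 0.50 (adjusted p = 0.0352). The main network collagens *Col4a1* (−0.08) and *Col4a2* (0.06), the laminin linker *Nid1* (0.03), agrin *Agrn* (−0.13) and perlecan *Hspg2* (−0.29) did not pass. *Col4a5* passed without any 1 tumor, whereas the calls of *Col4a6* (without sgScramble 2 or 4 or sgKRT19 5 or 8), *Bcam* (without any 1 tumor except sgKRT19 5) and *Fbln1* (without sgScramble 1 or 2 or sgKRT19 5 or 6) were lost, at adjusted p of 0.07 to 0.1, 0.0543 to 0.147 and 0.0677 to 0.118. When only library size was scaled 3 were called, all lower, and *Fbln1* was not (0.28, adjusted p = 0.21).

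Integrin activators and adaptors were called for 7 of 28 (25%, beside 34.0% of all genes), 2 higher and 5 lower, with a median of −0.02. When only library size was scaled, 11 were called, 1 higher and 10 lower. *Fermt2*, kindlin-2 of non-blood cells, was 1427, 1283, 1410.2 and 1601 in sgScramble and 866, 757 and 677 in sgKRT19 tumors (log2 fold change −0.90, standard error 0.12, limma adjusted p = 0.000607). *Fermt3*, the kindlin of blood cells, rose by 0.38 (adjusted p = 0.0424), a call that changed under 11 of 17 alternatives and was lost with library size as the only scaling (0.17, adjusted p = 0.412). Of the parvins, the leukocyte form *Parvg* was higher by 0.80 (adjusted p = 0.00898) and *Parvb* was lower by 0.47 (adjusted p = 0.0187). The tensins *Tns3* (−1.06, adjusted p = 0.000615) and *Tns2* (−1.05, adjusted p = 0.000938), which tie integrin tails to actin, fell below 50% of the control means, at 47.5% and 48.4%. *Tln1*, talin, was 0.12 (adjusted p = 0.609) and *Ilk*, the integrin-linked kinase, 0.04 (adjusted p = 0.791). *Lims2*, a partner of *Ilk*, fell by 0.75 (adjusted p = 0.0155). The calls lost without 1 tumor were those of *Fermt3* (without any except sgScramble 4, adjusted p of 0.0702 to 0.119), *Parvb* (without sgScramble 2 or 4 or sgKRT19 5 or 8, 0.0506 to 0.0683) and *Lims2* (without sgKRT19 6, 0.052).

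**Figure D5:**
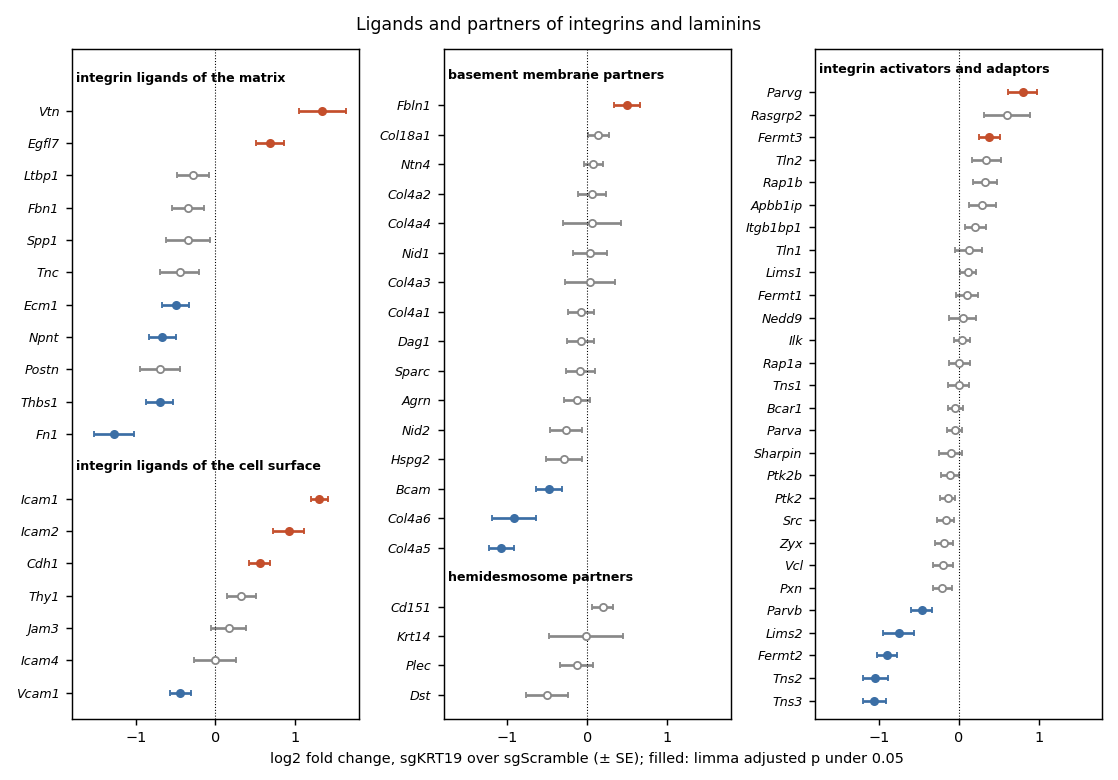
Log2 fold change of sgKRT19 over sgScramble tumors (x axis, with the standard error as bars) for the tested genes of 5 lists of ligands and partners. Filled points passed limma's adjusted p of 0.05 (red higher, blue lower in sgKRT19): *Icam1* (1.30) and *Vtn* (1.34) lie farthest to the right, and *Fn1* (−1.28), *Col4a5* (−1.08), *Tns3* (−1.06) and *Tns2* (−1.05) farthest to the left.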

How the data were processed

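Total gene expression was measured in 7 mouse tumors, 4 sgScramble and 3 sgKRT19. The authors deposited 1 table of 38026 genes whose values are a signal, reads per gene divided by a size factor of each library. Per the submitters' processing notes the genome build was mm10, while the aligner and the counting program are not given in the sources used here. Within a tolerance of 0.02, 100% of the values were multiples of what 1 read is worth in their library, which gave back whole reads for edgeR and DESeq2. The label gives poly(A) RNA and the methods of the study a stranded total RNA kit. How overlapping genes were counted is not stated, so members with shared exon bases are uncertain. These are *Itga1*, *Itga7*, *Itga8*, *Itga10*, *Itgad*, *Itgav*, *Itgb4*, *Lama2*, *Lama3* and *Lamc3*. On the same strand, *Itga10* shares 33.5% of its exon bases with Gm42957, *Itgad* 7.32% with Gm17831 and *Itga1* 3.68% with Gm49395. The floor of 3 reads covers counting error only, since molecular identifiers were not used. Positions, exons and strands came from GENCODE M21 (GRCm38), which holds 97.6% of the gene identifiers in the same version.

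Genes that reached a value of 10 in 3 or more libraries entered limma 3.58.1 in R 4.3.3 (lmFit, then eBayes with a trend, two-sided) on log2(value + 1), with group as the only term. With a pseudocount of 1, changes of genes at low values are understated. Log2 ratios of 6 chain pairs were tested with scipy 1.17.1 by exact permutation over 35 splits. Alternatives were pseudocounts of 0.5 and 10, no filter or a minimum of 50, library size or TMM scaling, edgeR 4.0.16 (quasi-likelihood), DESeq2 1.42.0, limma without trend, a test for a fold change above 1.5, and leaving out each tumor. The fits were first run on simulated counts with far fewer changed genes than were called here. That run checked the procedure only, and its setting differs from these tumors. Within groups, pairs of libraries differed by a chi-square of 17.2 to 74.2 per degree of freedom, so none was a repeat of another. The most alike pairs were sgScramble 2 with 4 (17.2) and sgScramble 1 with 3 (25.5), and the least alike was sgScramble 1 with 4 (74.2).

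Members, gene lists and tests were chosen with earlier results of these data known. All members are accounted for. Values per tumor are given for called members and defining chains, and of each list up to 4 called genes whose groups do not overlap. The other list genes named were chosen after their values were seen.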

Additional observations from a re-analysis of the deposited data

Results flagged for a closer look

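Among the 4 sgScramble tumors, the highest and the lowest value were compared with the others for 39 measures, which were the 33 members and 6 ratios, and 2 of them (5.13%) had a tumor far from the rest. Chance flags about 1 in 20 groups. *Itgax* was 1207 in sgScramble 4, against 845 to 874 in the other controls. The log2 ratio of *Itga6* to *Itgb4* was 1.90 in sgScramble 1, against 1.36 to 1.40 in the other controls.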

How the results depend on the processing

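No paired analysis was possible because the groups share no replicate number (1 to 4 against 5, 6 and 8). Over the 17 alternatives, 473 of the members' values kept direction and side of the threshold, 52 lost the call, 6 gained one and 12 changed sign. *Itgae*, *Itgb7*, *Itgb8* and *Lamb1* were called in all 17, and *Itgb5* and *Lama5* in all but the test for a fold change above 1.5. That test called 1336 genes in all (6.27%) and 4 members (12.5%), 2 higher and 2 lower. limma without trend called 8 members (25%, beside 29.0% of all genes), of which 2 were higher. Library size scaling left 2 higher and moved the median of all members to −0.13. Without 1 tumor, 6 to 12 members were called, 2 to 5 higher and 4 to 9 lower, beside 4861 to 7714 of all genes, with the lowest count of both without sgScramble 2, and the median of all members was −0.080 (without sgKRT19 6) to 0.28 (without sgKRT19 8). Library size scaling turned *Itga6* (−0.026), *Itgb1* (−0.077), *Itgb3* (−0.18) and the median of the epithelial integrins (−0.026), and moved that of all integrins to 0.076. That median was 0.13 to 0.32 without 1 tumor, lowest without sgKRT19 6. Leaving out 1 tumor also turned signs, over ranges of −0.0037 (without sgScramble 3; −0.0035 without sgKRT19 6) to 0.11 for *Itgb3*, −0.014 (without sgScramble 1) to 0.44 for *Lama1*, −0.54 to 0.021 (without sgScramble 3) for *Lama2*, −0.40 (without sgKRT19 6; −0.029 without sgScramble 4) to 1.06 for *Lama3*, −0.24 to 0.042 (without sgScramble 4) for *Lama4*, −0.36 to 0.29 (without sgKRT19 8; 0.037 without sgScramble 3) for *Lamb3*, −0.14 to 0.039 (without sgKRT19 5; 0.00087 without sgScramble 3) for the ratio of *Itgax* to *Itgb2*, and −0.062 (without sgKRT19 6) to 0.77 for that of *Lama3* to *Lamb3*. None of these was called in the reported fit, and the cause was not tested. With 4 against 3 tumors the ratio tests cannot pass 0.05, and low chains such as *Lamc3* and *Itga8* rest on few reads.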
